A study of Caenorhabditis elegans with 24 samples.

Results

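The protease genes described here are the astacins (nas genes), the cathepsin B and L genes (cpr and cpl), the cathepsin F gene tag-196 and the aspartyl proteases (asp) of Caenorhabditis elegans. They were chosen by name, that is every gene of the siRNA table named nas, cpr, cpl or asp with a number, and tag-196. There were 49 such genes among the 20167 genes of the table. They comprised 35 astacins, 6 cathepsin B genes, 2 genes of the cathepsin L and F group and 6 aspartyl proteases. nas-9 had more than 1 transcript, of which the one with the higher mean was used.

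The values are levels of small RNAs antisense to each mRNA, in RPKM (reads normalised to exon length and to the total reads of the library), from whole young gravid adults. hrde-1(tm1200) animals, mutant for a nuclear Argonaute protein of the germline, were set against the wild-type strain N2 (WT). Both strains were fed OP50 bacteria and kept for 12 generations, 3 at 15 °C (15C-G1 to G3), then 6 at 23 °C (23C-G1 to G6), then 3 again at 15 °C (p15C-G1 to G3). L1 larvae released onto food grew for 50 to 55 h at 23 °C but for 114 to 120 h at 15 °C before collection, so that temperature and time in culture cannot be told apart. The study groups the generations into 4 phases of 3 libraries per genotype. Phase I is the first stay at 15 °C, phases II and III are the first and the last 3 generations at 23 °C, and phase IV is the second stay at 15 °C. Each genotype was 1 lineage with 1 library per generation, 24 libraries in all. siRNA levels cannot show whether the hrde-1 gene was lost, so that genotypes are as labelled. p-values measure the spread between successive generations of a lineage, not between independent lineages.

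Endogenous siRNAs of C. elegans are mostly made by RNA-dependent RNA polymerases on an mRNA template, so that an antisense siRNA names the mRNA it was copied from. Argonaute proteins load them, and HRDE-1 carries its siRNAs into germline nuclei, where they guide silencing at the matching genes. The values here are therefore siRNA levels over protease genes and not levels of protease mRNA or protein. Astacins are secreted zinc metalloproteases, which in worms act on the cuticle, the eggshell and extracellular matrix and in digestion. Cathepsins B, L and F are cysteine proteases, and the asp genes encode relatives of cathepsin D. Both of these groups work in lysosomes and in the gut lumen.

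Low values lay on steps, which are taken here as whole reads, and no value was 0. On this scale the libraries rested on 299500 to 1043400 reads, and 1 read over 1 kb of transcript was worth 0.958 to 3.34 RPKM. Between 28.8 and 47.7% of all transcripts in a library stood at the lowest step, called the floor below, where 0 reads and 1 read cannot be told apart. The floor is higher in shallow libraries, so that genes with few siRNAs shift with depth. The median log2 fold change of all genes is given beside each comparison for this reason. Among genes used in other cell types, the 6 intestine genes (ges-1, elt-2, elt-7, ifb-2, act-5 and mtl-2) averaged 1.58 to 7.14 RPKM and the 6 germline genes (pgl-1, glh-1, glp-1, gld-1, nos-2 and mex-5) 40.3 to 309 RPKM. limma called 0 of 30 tests of the intestine genes and 0 of 30 of the germline genes between genotypes, with 4 and 16 at an unadjusted p under 0.05. The median log2 fold change of the germline genes in hrde-1 over WT was 0.37, 0.29, 0.13 and 0.27 in phases I to IV, so that germline genes lay slightly higher in the mutant, and the part of this in the results below was not tested. limma also called 0 of 20 tests of the 4 epidermis genes (dpy-7, elt-3, nhr-25 and rol-6, 1.53 to 2.94 RPKM), with 3 at an unadjusted p under 0.05, and for temperature 0 of 36, 0 of 36, 0 of 24 and 0 of 24 tests of the intestine, germline, epidermis and sperm genes, with 4, 3, 3 and 2 at an unadjusted p under 0.05. Of the 4 sperm genes (spe-9, spe-11, spe-38 and fer-1, 3.01 to 13.97 RPKM), fer-1 was called lower in hrde-1 in phases I, II and III (log2 fold change −1.39, −1.64 and −1.29), and its part in the results below was not tested. In whole animals, fewer cells that hold an siRNA and less of it per cell cannot be told apart.

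Most protease genes had very few siRNAs. The median of their mean levels was 2.39 RPKM, against 6.26 RPKM over all genes. Only 10 of the 49 (20.4%) had a mean of at least 5 reads, against 39.8% of all genes, and 25 had a mean under 2 reads. 7 members stood at the floor in all 24 libraries, 25 in at least 12, and 4 in none. 47 of the 49 passed the minimum mean of 1 RPKM and were tested. nas-37 and nas-38, astacins known for the shedding of the old cuticle at the moult, did not pass it. nas-37 ranged from 0.56 to 1.32 RPKM in hrde-1 and from 0.42 to 1.45 RPKM in WT, and nas-38 from 0.56 to 1.25 RPKM in hrde-1 and from 0.41 to 1.44 RPKM in WT.

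**Figure D1:**
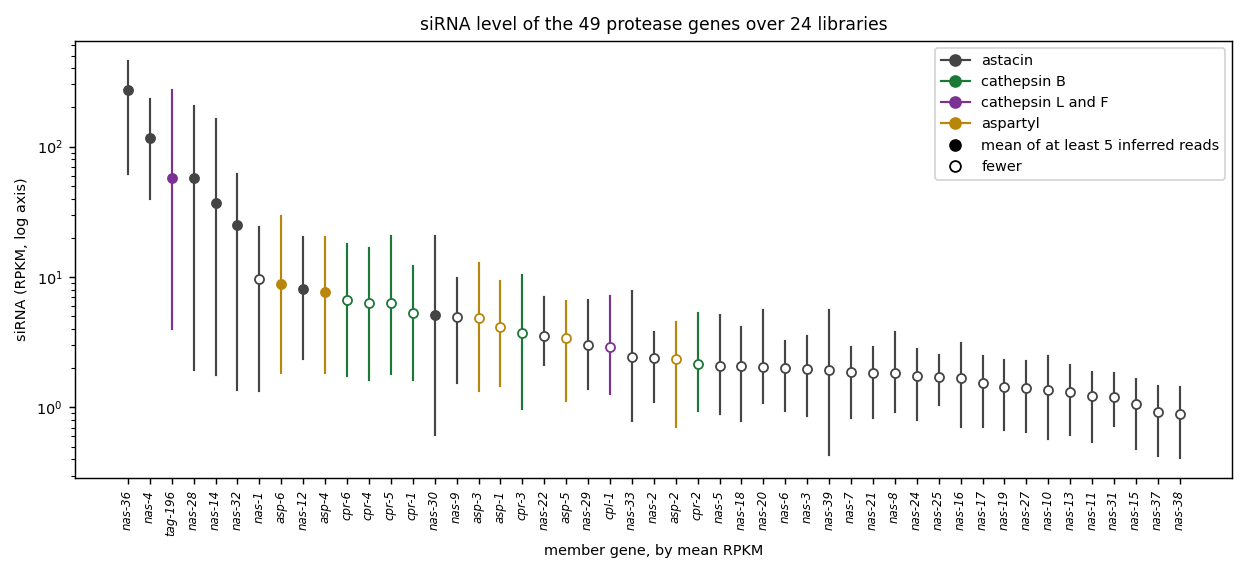
siRNA level of each of the 49 protease genes in RPKM on a log axis, ordered by mean. Points are means over the 24 libraries, filled for a mean of at least 5 reads, and lines run from the lowest to the highest library. nas-36 leads with a mean of 270 RPKM, 6 members lie above 10 RPKM, and most of the astacins lie near the floor.

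A small set of members held most of the signal. The 6 members with the highest means were nas-36 (270 RPKM over all libraries), nas-4 (116.2), tag-196 (57.7), nas-28 (57.4), nas-14 (36.7) and nas-32 (25.1). In each library they took together 58.9 to 89.2% of the summed RPKM of the 49 genes, and nas-36 alone took 12.8 to 54.7%. Summed astacin siRNA ranged from 644 to 971 RPKM in the 12 hrde-1 libraries and from 242 to 585 RPKM in the 12 WT libraries, without overlap. This sum is weighted to nas-36 and nas-4 and does not describe the astacins as a family. It holds the nas genes alone and leaves out dpy-31, an astacin with a mean of 381 RPKM described further on. Whether the ranges stay apart with dpy-31 in the sum was not tested. The median log2 fold change of the 33 tested astacins in hrde-1 over WT was −0.002 over the mean of the phases. The other families overlapped between the genotypes. Summed cathepsin B siRNA lay between 14.3 and 63.9 RPKM in hrde-1 and between 13.8 and 54.1 RPKM in WT, and summed aspartyl protease siRNA between 15.5 and 64.9 RPKM in hrde-1 and between 16.4 and 51.3 RPKM in WT. The sum of cpl-1 and tag-196 spanned 10.4 to 125 RPKM in hrde-1 and 5.50 to 273 RPKM in WT.

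Positions were taken from the WBcel235 annotation, which is not the build the reads were aligned to. 24 members are on chromosome V, 11 on X, 4 each on II and IV, and 3 each on I and III. On V, nas-18, nas-17 and nas-19 lie next to each other, with K03B8.4 between them and nas-16. nas-20 to nas-22 also lie next to each other, while asp-12 lies between asp-6 and asp-5. The members of these clusters had means of at most 2.28 reads, except asp-6 with 6.46 reads. 2 members share exon sequence with another coding gene on the same strand, where siRNAs of either gene could be counted for both. These are nas-4, which shares 437 bases with C05D11.5, and nas-39, which shares 276 bases with F38E9.1.

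The first question was how loss of hrde-1 alters these siRNAs, asked within each phase. Differences are log2 fold changes on the log2(RPKM + 1) scale with their SE, and a gene counts as called where the fold reached 2 and the adjusted p did not exceed 0.1 in limma's moderated test over 19839 genes. The same 4 astacin genes, nas-36, nas-4, nas-14 and nas-32, were called higher in the mutant in phases I, III and IV, and 3 of them (nas-36, nas-14 and nas-32) in phase II. Of the 47 members tested, 4 were called higher in phase I, beside 3.72% of all genes. The numbers were 3 for phase II (2.5% of all genes), 4 for phase III (2.68%) and 4 for phase IV (3.65%). Lower calls numbered 1 for phase I (4.1% of all genes), 0 for phase II (3.2%), 2 for phase III (3.18%) and 1 for phase IV (4.34%). In phase II, 4 of 47 members had an unadjusted p under 0.05 in limma, beside 3119 of 19839 genes. Over the mean of the phases, 4 members were called higher (2.7%) and 0 lower (3.21%). There, 10 of 47 members had an unadjusted p under 0.05, beside 5484 of 19839 genes. As a description, higher calls made up a larger share of the members than of all genes in each phase, and lower calls a smaller share except in phase III. The median log2 fold change of the members was −0.25 in phase I, 0.13 in phase II, 0.10 in phase III and 0.06 in phase IV, beside −0.19, 0.14, 0.11 and 0.07 over all genes. Over the mean of the phases it was 0.01 for the members and 0.00 for all genes.

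nas-36 had the most siRNA of the protease genes, with a mean that 2.42% of all genes exceeded. It encodes an astacin of the cuticle that is needed for a normal moult, and lies on chromosome I from 7527224 to 7531715 on the plus strand. In hrde-1 it had 431, 426 and 408 RPKM at 15C-G1 to G3, 443, 457, 375, 373, 391 and 347 RPKM at 23C-G1 to G6, and 426, 414 and 434 RPKM at p15C-G1 to G3. In WT it had 169, 115 and 147 RPKM, then 189, 179, 148, 145, 128 and 126 RPKM, and 74.3, 72.2 and 61.7 RPKM in the same generations. Every mutant library lay above every WT library. The number of all genes ordered in this way was not counted, so that this is a description. In the mutant the level kept within a narrow band over the 12 generations, while the 3 lowest WT libraries were those after the return to 15 °C.

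The phase means of nas-36 were 422 ± 11.9, 425 ± 44.2, 371 ± 21.9 and 425 ± 9.94 RPKM in hrde-1, against 143 ± 27.0, 172 ± 21.2, 133 ± 10.3 and 69.4 ± 6.75 RPKM in WT (SD, n = 3 each, phases I to IV). The mutant mean was thus 2.94, 2.47, 2.78 and 6.12 times that of WT. The log2 fold changes were 1.57 ± 0.13, 1.30 ± 0.13, 1.47 ± 0.13 and 2.60 ± 0.13 (SE), with limma adjusted p of 6.9e-09, 1.67e-07, 2.08e-08 and 3.31e-12. Leaving out any single library kept these 4 calls. Its neighbours in the annotation were not called between genotypes. goa-1, a G protein gene on one side, averaged 46.6 RPKM in hrde-1 and 41.5 RPKM in WT, and C26C6.4 on the other side 1.88 RPKM in hrde-1 and 1.82 RPKM in WT.

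nas-4 (chromosome III, 6411578 to 6415656, minus strand) showed the same order of genotypes at a lower level. In hrde-1 it had 183, 172 and 175 RPKM at 15C-G1 to G3, 136, 144, 125, 133, 143 and 148 RPKM at 23C-G1 to G6, and 189, 200.3 and 231 RPKM at p15C-G1 to G3. In WT it had 111, 75.5 and 68.6 RPKM, then 74.6, 89.4, 63.9, 66.8, 58.0 and 59.7 RPKM, and 50.1, 52.4 and 39.7 RPKM. Again each of the 12 mutant libraries exceeded each of the 12 WT libraries.

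The mutant mean of nas-4 was 2.08, 1.78, 2.30 and 4.36 times that of WT in phases I to IV. The log2 fold changes were 1.08 ± 0.17, 0.83 ± 0.17, 1.19 ± 0.17 and 2.10 ± 0.17, so that in phase II the difference passed the p limit (adjusted p = 0.00157) but not the 2-fold minimum. The phase I call sits on that minimum, with 0.94 when WT 15C-G3 was left out and 0.95 after another scaling of the libraries. C05D11.5, the gene that shares exon bases with nas-4, averaged 6.15 RPKM in hrde-1 and 3.27 RPKM in WT and was called in phase I alone (log2 fold change 1.45).

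**Figure D2:**
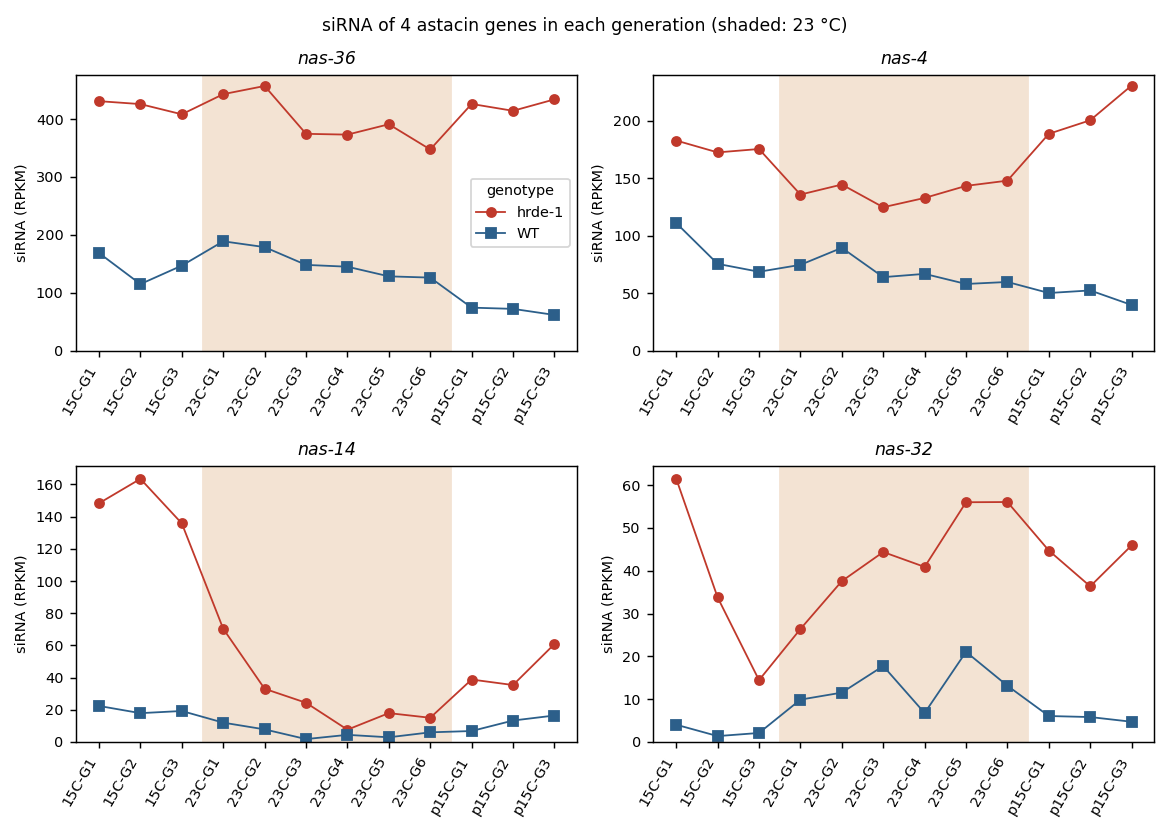
siRNA level in RPKM over the 12 generations for nas-36, nas-4, nas-14 and nas-32, with hrde-1 as red circles and WT as blue squares, 1 library per point, and generations at 23 °C shaded. Mutant points lie above WT points in 12 of 12 generations for each of the 4 genes, which were chosen because the same libraries called them higher. nas-36 and nas-4 do so over their whole ranges, and the nas-14 gap narrows at 23 °C.

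nas-14 (chromosome IV, 13170541 to 13174144, plus strand) differed most at the start. The mutant had 148, 163 and 136 RPKM at 15C-G1 to G3, 70.3, 33.0, 24.4, 7.63, 17.9 and 15.0 RPKM at 23C-G1 to G6, and 38.8, 35.4 and 60.8 RPKM at p15C-G1 to G3. WT libraries had 22.4, 17.9 and 19.2 RPKM, then 12.0, 7.81, 1.78, 4.42, 2.89 and 5.98 RPKM, and 6.79, 13.3 and 16.4 RPKM. The mutant was above WT in 12 of 12 generations, but mutant levels at 23 °C overlapped WT levels at 15 °C.

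For nas-14 the log2 fold changes were 2.85 ± 0.45, 2.53 ± 0.45, 1.38 ± 0.45 and 1.84 ± 0.45 in phases I to IV, with limma adjusted p of 8.54e-05, 0.000449, 0.0708 and 0.00832. The phase III call was lost without WT 23C-G4 (adjusted p = 0.154), WT 23C-G5 (0.26), hrde-1 23C-G5 (0.255) or hrde-1 23C-G6 (0.21), and with a pseudocount of 10 RPKM (0.68, adjusted p = 0.16). With 1 step taken off the values, the phase III call (1.73, limma adjusted p = 0.174) and the phase IV call (1.93, 0.118) were both lost. In phase I the mutant mean was 7.52 times the WT mean (149 ± 13.9 against 19.8 ± 2.30 RPKM, SD, n = 3).

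nas-32 (chromosome V, 894909 to 899187, minus strand) was low in WT and variable in the mutant. The mutant had 61.5, 33.8 and 14.4 RPKM at 15C-G1 to G3, 26.4, 37.6, 44.4, 40.9, 56.0 and 56.1 RPKM at 23C-G1 to G6, and 44.7, 36.4 and 45.9 RPKM at p15C-G1 to G3. WT libraries had 4.03, 1.37 and 2.10 RPKM, then 9.89, 11.5, 17.7, 6.76, 21.1 and 13.1 RPKM, and 6.06, 5.82 and 4.72 RPKM. Within each phase all mutant libraries lay above all WT libraries. Across phases the ranges met, since mutant 15C-G3 was below WT 23C-G3 and WT 23C-G5.

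For nas-32 the log2 fold changes were 3.28 ± 0.41, 1.41 ± 0.41, 1.94 ± 0.41 and 2.73 ± 0.41, with limma adjusted p of 2.66e-06, 0.0346, 0.00222 and 3.23e-05. With a pseudocount of 10 RPKM the phase II value was 0.996. The phase II call did not hold without WT 23C-G1 (adjusted p = 0.138), WT 23C-G2 (0.115) or hrde-1 23C-G3 (0.15). The next gene in the annotation, fmo-5, a flavin monooxygenase gene, averaged 63.6 RPKM in hrde-1 and 69.9 RPKM in WT and was not called between genotypes. lev-1, the gene next to nas-14, averaged 2.41 RPKM in hrde-1 and 1.23 RPKM in WT and was called in phase IV alone (1.13).

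nas-1, nas-30 and nas-39 were called lower in the mutant, each at a low level. nas-1 (chromosome III, 13405804 to 13409292, plus strand) had 3.09, 4.04 and 1.34 RPKM in hrde-1 at 15C-G1 to G3, against 14.4, 11.2 and 8.57 RPKM in WT, a log2 fold change of −1.74 ± 0.35 (adjusted p = 0.00151). At 23C-G4 to G6 it had 11.9, 6.98 and 8.78 RPKM in hrde-1 against 24.1, 22.6 and 13.1 RPKM in WT (−1.02 ± 0.35). That second call rests on the fold minimum and was lost without WT 23C-G4 (−0.86), WT 23C-G5 (−0.91), hrde-1 23C-G5 (−0.85) or hrde-1 23C-G6 (−0.998). hrde-1 was above WT in only 1 of 12 generations, 23C-G3. nas-1 had on average 4.49 reads, so that single reads move these values. With a pseudocount of 10 RPKM both calls missed the fold minimum (−0.73 and −0.62).

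nas-30 (chromosome I, 938483 to 947710, plus strand) was called lower in phase III, with 2.71, 6.35 and 13.3 RPKM in hrde-1 against 12.5, 20.5 and 15.3 RPKM in WT (−1.20 ± 0.39, adjusted p = 0.0719). The groups overlapped in part, and leaving out WT 23C-G5, WT 23C-G6, hrde-1 23C-G4 or hrde-1 23C-G5 ended the call (adjusted p 0.255, 0.128, 0.472 and 0.144). nas-39, whose product is related to the tolloid proteases that process matrix and BMP-type signals, had 0.43, 0.96 and 1.81 RPKM in hrde-1 in phase IV against 4.10, 2.58 and 2.79 RPKM in WT (−1.05 ± 0.29, adjusted p = 0.0208). It lost the call without WT p15C-G1 (−0.89) or hrde-1 p15C-G1 (−0.81). With a pseudocount of 10 RPKM nas-30 (−0.61) and nas-39 (−0.25) missed the fold minimum.

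In the fit of all 24 libraries the cysteine and aspartyl proteases gave 0 calls between genotypes in limma in any phase. At an unadjusted p under 0.05 there were 0 cathepsin B genes in each of the phases, 1, 0, 1 and 0 genes of the cathepsin L and F group, and 1, 0, 0 and 2 aspartyl protease genes in phases I to IV. Over all 19839 genes tested the numbers were 4163, 3119, 3077 and 3514. The aspartyl protease genes nearest to a call were asp-4, which encodes a cathepsin D-type lysosomal protease, and asp-1, an intestinal protease gene. In phase IV asp-4 had 8.85, 18.4 and 12.3 RPKM in hrde-1 against 6.97, 7.16 and 2.11 RPKM in WT (1.22 ± 0.44, adjusted p = 0.104, above the limit). asp-1 was above WT in 10 of 12 generations and averaged 5.13 ± 2.43 RPKM in hrde-1 against 3.17 ± 1.76 RPKM in WT (SD, n = 12 generations), with a phase IV log2 fold change of 1.05 ± 0.39 that was not called (adjusted p = 0.11). Both sit near the limit. asp-4 passed when only genes of at least 5 reads were tested (adjusted p = 0.0664) and asp-1 when only the libraries compared were fitted (0.0752). tag-196 likewise passed in phase III in these settings (1.09, adjusted p = 0.0909 and 0.0987).

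**Figure D3:**
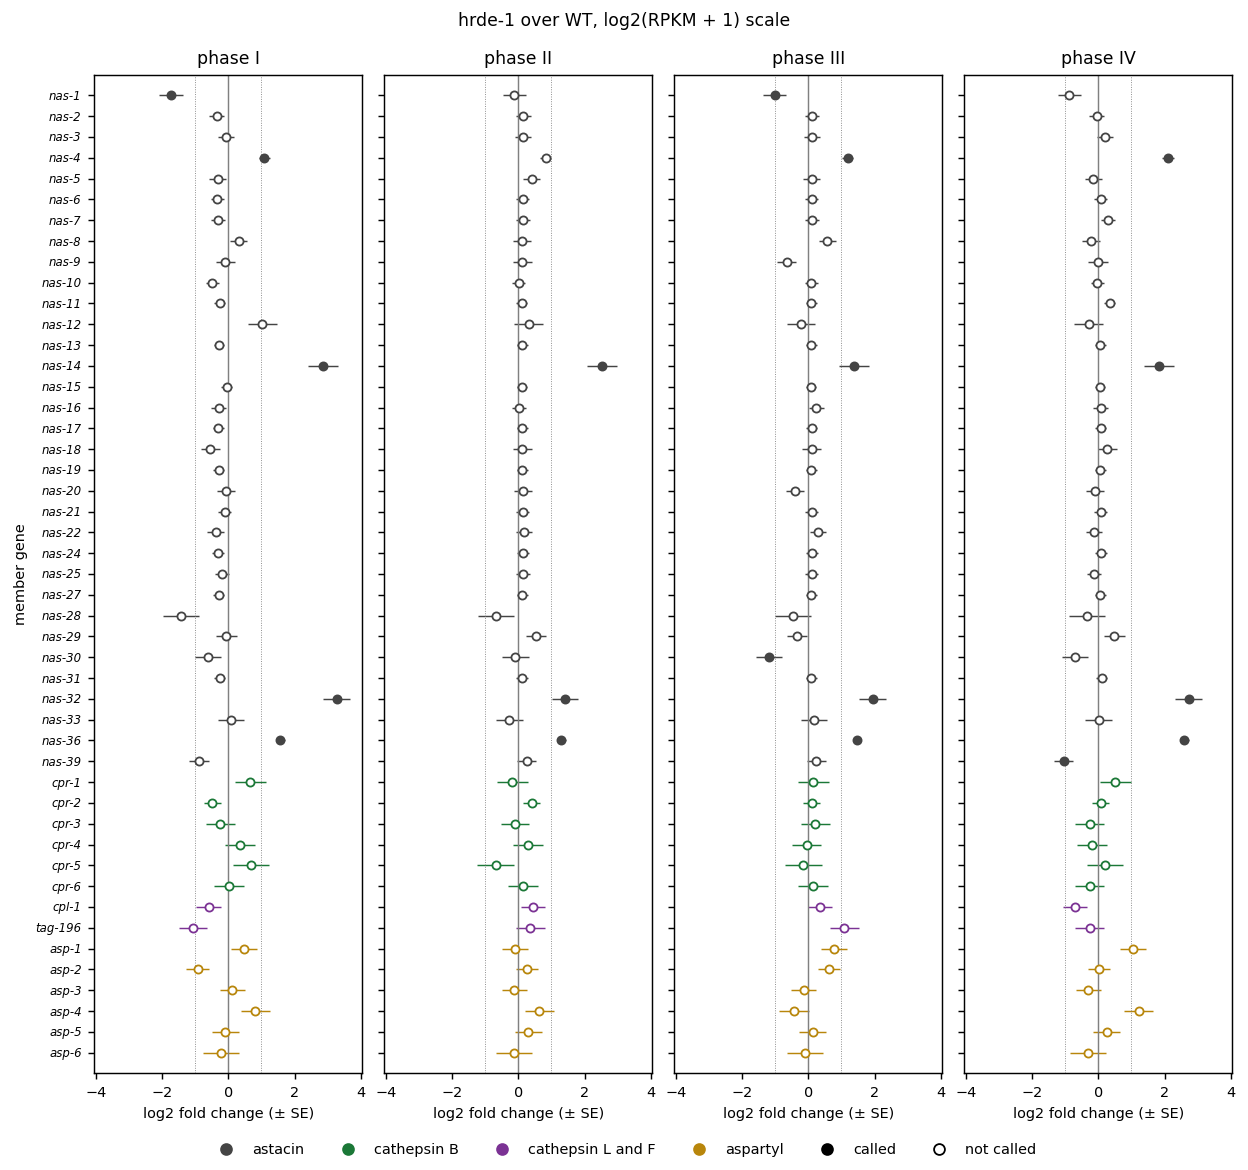
log2 fold change of hrde-1 over WT with SE for the 47 tested members, 1 panel per phase, on the log2(RPKM + 1) scale. Filled points were called, dotted lines mark a 2-fold difference, and colours give the family. The called points are astacins in each panel, and most members sit close to 0, shifted with the median of all genes (−0.19 in phase I).

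To ask how temperature moved these siRNAs, 23C-G2 to G6 were compared with the first 3 generations at 15 °C in each genotype. 23C-G1, which saw both temperatures, was fitted as a group of its own. In hrde-1, 2 members were called higher (3.71% of all genes) and 5 lower (2.7%). In WT, 2 were called higher (3.94%) and 4 lower (2.64%). The median log2 fold change of the members was 0.40 in hrde-1 and 0.09 in WT, beside 0.31 and 0.10 over all genes. nas-28, tag-196 and nas-14 fell at 23 °C in both genotypes. As a description, lower calls made up a larger share of the members than of all genes.

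**Figure D4:**
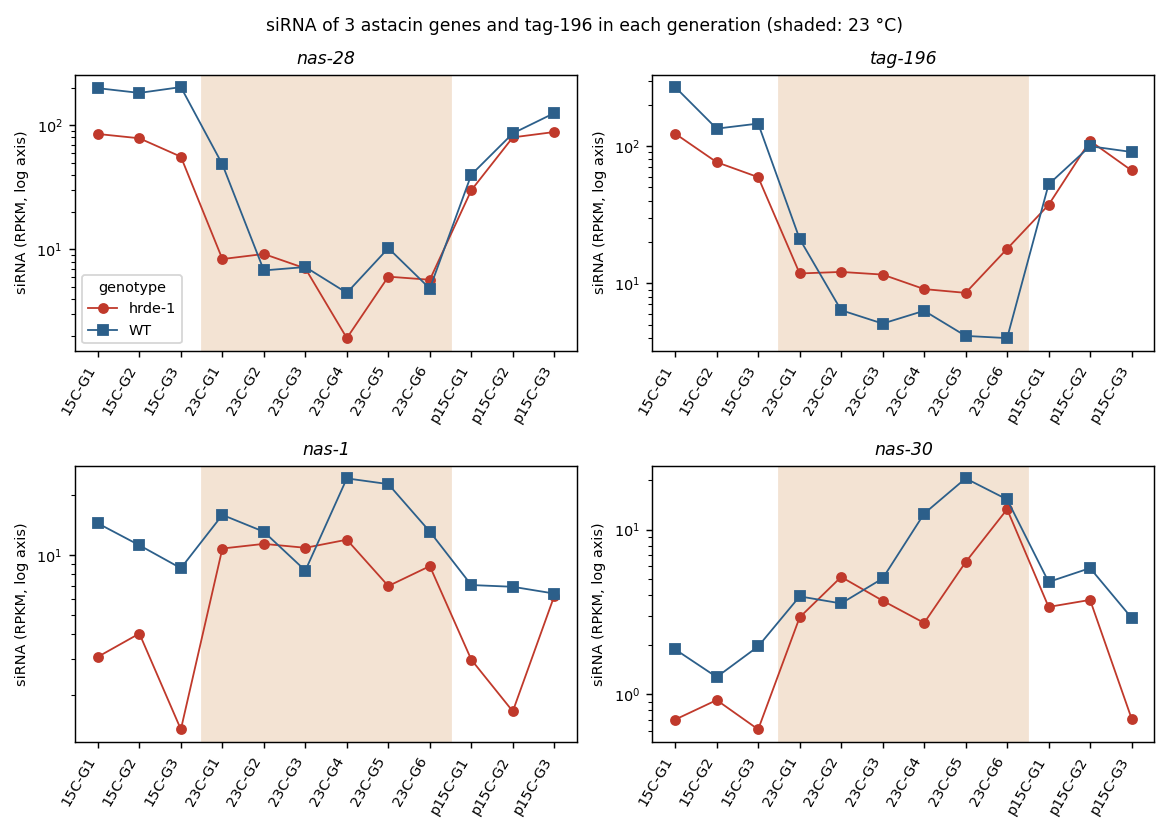
siRNA level in RPKM on a log axis over the 12 generations for nas-28, tag-196, nas-1 and nas-30, with hrde-1 as red circles and WT as blue squares, 1 library per point, and generations at 23 °C shaded. nas-28 and tag-196 drop at 23 °C in both genotypes and rise again by p15C-G2. In WT they reach 86.3 and 100.01 RPKM there, and each p15C library stays below each first 15 °C library. nas-30 is higher at 23C-G2 to G6 than at 15C-G1 to G3 in both genotypes.

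tag-196 (chromosome V, 8594914 to 8597469, plus strand), the cathepsin F gene, fell most in WT. In hrde-1 it had 12.1, 11.6, 9.07, 8.51 and 17.8 RPKM at 23C-G2 to G6, against 124, 76.5 and 59.5 RPKM at 15C-G1 to G3. In WT it had 6.36, 5.08, 6.30, 4.13 and 3.98 RPKM at 23C-G2 to G6, against 270, 134 and 146 RPKM at 15C-G1 to G3. At 23C-G1 it was already down to 11.8 RPKM in hrde-1 and 21.1 RPKM in WT.

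The level of tag-196 at 15 °C was 7.32 times that at 23C-G2 to G6 in hrde-1 and 35.5 times in WT. At 23C-G2 to G6 the libraries held only 4.90 to 9.79 reads of it in hrde-1 and 2.94 to 3.92 in WT, so that single reads move these ratios. The log2 fold changes were −2.75 ± 0.33 in hrde-1 (adjusted p = 7.26e-06) and −4.85 ± 0.33 in WT (adjusted p = 5.4e-09). Their difference was itself called, with hrde-1 minus WT at 2.10 ± 0.46 (limma adjusted p = 0.016). It rested on a lower level in hrde-1 than in WT at 15 °C (86.5 ± 33.2 against 184 ± 75.1 RPKM, SD, n = 3) and a higher one at 23C-G2 to G6 (11.8 ± 3.70 against 5.17 ± 1.14 RPKM, SD, n = 5). With 23C-G1 put into the 23 °C mean the difference was 1.80 and was no longer called (adjusted p = 0.117), nor was that of nas-39 (1.13, adjusted p = 0.12).

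nas-28 (chromosome III, 6180962 to 6183218, minus strand) followed the same course. The mutant had 9.20, 7.04, 1.93, 6.04 and 5.70 RPKM at 23C-G2 to G6, against 85.3, 78.8 and 56.0 RPKM at 15C-G1 to G3. WT libraries had 6.78, 7.22, 4.47, 10.3 and 4.84 RPKM at 23C-G2 to G6, against 199.7, 183 and 204 RPKM at 15C-G1 to G3. The first generation at 23 °C had 8.37 RPKM in hrde-1, while WT still held 48.6 RPKM. At 23C-G2 to G6 these levels stand for 3.40 reads per library in hrde-1 and 4.20 reads in WT on average. Its neighbour C23G10.5 averaged 28.2 RPKM in hrde-1 and 50.4 RPKM in WT. The log2 fold change of C23G10.5 with heat was −0.58 in hrde-1 and −1.54 in WT, and −1.25 for hrde-1 over WT in phase I. F42A10.7 on the other side had 0.50 and 0.11 with heat, and −0.13 in phase I. Neither neighbour was called between genotypes, and a link to nas-28 was not tested.

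For nas-28 the log2 fold changes were −3.50 ± 0.39 in hrde-1 (adjusted p = 3.5e-06) and −4.72 ± 0.39 in WT (adjusted p = 1.08e-07), and their difference, 1.22 ± 0.56, was not called (adjusted p = 0.26). At 15C-G1 to G3 all mutant libraries lay below all WT libraries even for nas-6, nas-7, nas-37 and nas-38, which stood at the floor there. The number of all genes ordered in this way was not counted. As a description, the same order held for both nas-28 and tag-196. Neither phase I difference was called over all genes (−1.42 ± 0.55, adjusted p = 0.12 for nas-28, and −1.07 ± 0.43, adjusted p = 0.14 for tag-196), but both were called when only the libraries compared were fitted (0.000832 and 0.0749).

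nas-14 also fell with heat in each genotype, to 19.6 ± 9.62 RPKM at 23C-G2 to G6 in hrde-1, against 149 ± 13.9 RPKM at 15 °C, and to 4.58 ± 2.40 RPKM in WT, against 19.8 ± 2.30 RPKM (SD, n = 5 and 3). The log2 fold changes were −3.01 ± 0.38 and −2.01 ± 0.38 (adjusted p = 1.74e-05 and 0.0012). The difference of −0.99 ± 0.54 between the genotypes was not called (adjusted p = 0.26), but it passed with a pseudocount of 10 RPKM (−1.44, adjusted p = 0.0147). In contrast to nas-28 and tag-196, the nas-14 level in hrde-1 did not come back in full at p15C, as described further on.

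Smaller falls were called in 1 genotype each. nas-12 (chromosome IV, 10224023 to 10226387, plus strand) had 2.38, 4.55, 5.00, 7.82 and 2.46 RPKM at 23C-G2 to G6 in hrde-1, against 19.5, 13.6 and 20.2 RPKM at 15 °C (−1.86 ± 0.35, adjusted p = 0.00112). In WT its values were 6.57, 2.33, 5.78, 3.79 and 7.83 RPKM against 12.1, 4.68 and 9 RPKM (−0.61 ± 0.35, adjusted p = 0.37), and the difference between the genotypes was not called (−1.25 ± 0.49, adjusted p = 0.25). asp-4 had 5.80 ± 2.12 RPKM at 23C-G2 to G6 in hrde-1 against 13.9 ± 5.64 RPKM at 15 °C (−1.11 ± 0.41, adjusted p = 0.0408). The asp-4 call depended on hrde-1 15C-G1 (−0.82, adjusted p = 0.191 without it) and on hrde-1 15C-G3 (adjusted p = 0.102). nas-39 had 0.76, 0.81, 1.00, 0.65 and 2.71 RPKM at 23C-G2 to G6 in WT, against 2.38, 4.05 and 5.60 RPKM at 15 °C (−1.21 ± 0.25, adjusted p = 0.00288, and −0.99 without WT 15C-G3). With a pseudocount of 10 RPKM these falls of nas-12 (−0.95), asp-4 (−0.58) and nas-39 (−0.32) missed the fold minimum.

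3 members rose with heat. nas-30 had 5.16, 3.70, 2.71, 6.35 and 13.3 RPKM at 23C-G2 to G6 in hrde-1, against 0.70, 0.92 and 0.61 RPKM at 15 °C, each of which is the floor. In WT it had 3.56, 5.05, 12.5, 20.5 and 15.3 RPKM, against 1.87, 1.27 and 1.95 RPKM. The log2 fold changes were 1.89 ± 0.46 and 1.98 ± 0.46 (adjusted p = 0.0106 and 0.00719). All libraries at 23C-G2 to G6 exceeded all first 15 °C libraries of the same genotype. In hrde-1 this order also held at nas-6, nas-7, nas-37 and nas-38, which stood at the floor in each of these libraries. How many of all genes show it was not counted, so that it is a description. At this low level the size depends on the pseudocount, and with 10 RPKM in place of 1 the log2 fold changes were 0.56 in hrde-1 and 0.80 in WT, under the 2-fold minimum.

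nas-1 rose in hrde-1, to 9.97 ± 2.04 RPKM at 23C-G2 to G6, against 2.82 ± 1.37 RPKM at 15 °C (1.57 ± 0.34, adjusted p = 0.00421). In WT nas-1 had 16.2 ± 6.79 RPKM against 11.4 ± 2.90 RPKM and was not called. nas-32 rose in WT, to 14.04 ± 5.54 RPKM, against 2.5 ± 1.37 RPKM at 15 °C (2.09 ± 0.36, adjusted p = 0.000431), while in hrde-1 it stood at 47.0 ± 8.60 RPKM against 36.6 ± 23.7 RPKM. The difference between the genotypes in this response was called for neither nas-1 nor nas-32 in the main fit. That of nas-32 passed with a pseudocount of 0.1 RPKM (−1.90, limma adjusted p = 0.095). With a pseudocount of 10 RPKM these calls of nas-1 (0.64) and nas-32 (0.92) also missed the fold minimum. nas-36 differed by less than its spread in either genotype, with 389 ± 41.3 RPKM at 23C-G2 to G6 against 422 ± 11.9 RPKM at 15 °C in hrde-1, and 145 ± 21.1 RPKM against 143 ± 27.0 RPKM in WT.

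The difference between genotypes in the response to 23 °C had an unadjusted p under 0.05 at 11 of 47 members in limma. Over all genes this was 2899 of 19839. Of the members, 2 were called higher (1.11% of all genes) and 0 lower (1.41%). Besides tag-196 this was nas-39 (1.24 ± 0.36, adjusted p = 0.0856), a gene with 3.50 reads on average. The nas-39 call was lost without any of 12 of the 16 libraries compared, and the adjusted p then ranged up to 0.204. Without hrde-1 15C-G3 the calls over all genes were 139 higher and 215 lower, against 220 and 279 with it. The median of the members was 0.27, beside 0.22 over all genes.

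**Figure D5:**
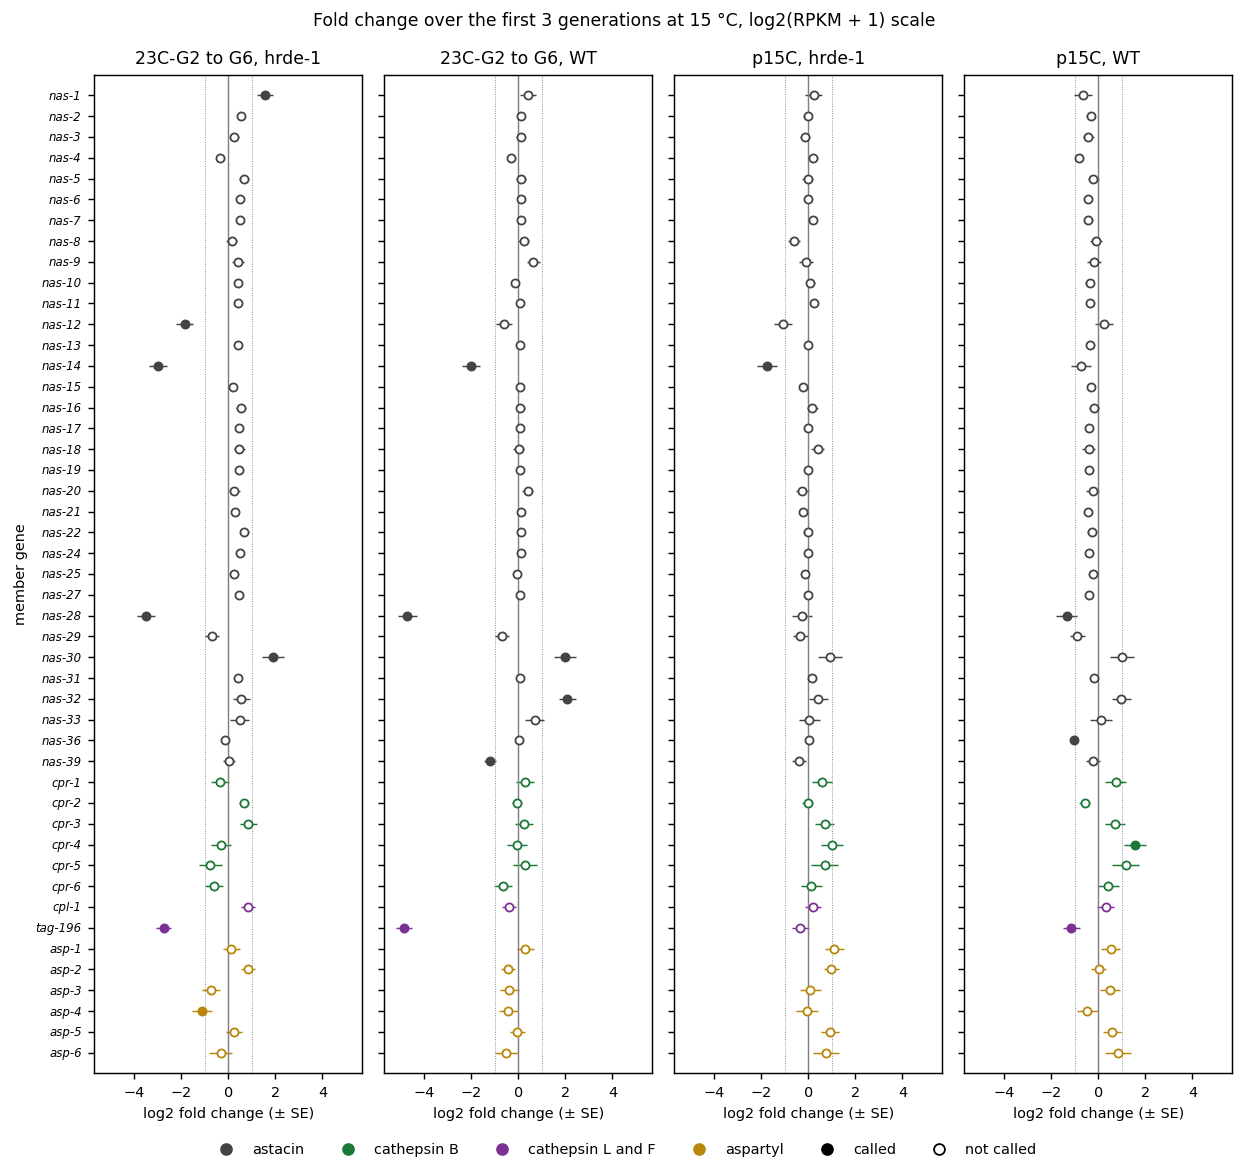
log2 fold change with SE of 23C-G2 to G6 over the first 15 °C generations (left pair of panels, hrde-1 then WT) and of p15C over the first 15 °C generations (right pair, hrde-1 then WT) for the 47 tested members, on the log2(RPKM + 1) scale. Filled points were called, and dotted lines mark a 2-fold difference. nas-28 and tag-196 lie far to the left at 23 °C in both genotypes and near 0 at p15C in hrde-1.

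To ask whether levels came back after the heat, p15C-G1 to G3 were compared with 15C-G1 to G3. In hrde-1, 7 of 47 members and 1939 of 19839 genes had an unadjusted p under 0.05 in limma. There, 0 members were called higher (1.19% of all genes) and 1 lower (0.635%). In WT, 1 was called higher (2.45%) and 3 lower (1.13%). Over all genes the WT calls were 487 higher and 224 lower with the values as deposited, and 346 higher and 381 lower after a median-ratio scaling of the libraries. These counts, and the shares of 2.45 and 1.13% with them, depend on single libraries. Leaving out any of the 6 gave 95 to 316 higher and 62 to 251 lower calls, with the fewest (95 and 62) without WT p15C-G2, 123 and 118 without WT 15C-G1 and 128 and 93 without WT p15C-G3. In hrde-1 the shares without hrde-1 15C-G3 were 1.64% higher and 0.988% lower. The median log2 fold change was −0.02 in hrde-1 and −0.29 in WT for the members, beside −0.03 and −0.13 over all genes.

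The gene called in hrde-1 was nas-14, at 45.0 ± 13.8 RPKM at p15C against 149 ± 13.9 RPKM at 15 °C (SD, n = 3), with no overlap. The log2 fold change was −1.74 ± 0.43 (adjusted p = 0.0358). It stayed at −1.59 or lower with any 1 library left out, but the adjusted p then passed 0.1 without hrde-1 15C-G1 (0.111), hrde-1 15C-G2 (0.134), hrde-1 p15C-G1 (0.141) or hrde-1 p15C-G2 (0.145). In WT nas-14 had 12.2 ± 4.92 RPKM at p15C against 19.8 ± 2.30 RPKM at 15 °C (−0.73 ± 0.43, not called), and the difference between the genotypes was not called (−1.01 ± 0.61, adjusted p = 0.38).

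In WT, nas-36, tag-196 and nas-28 were called lower at p15C and cpr-4 higher. nas-36 was at 69.4 ± 6.75 RPKM at p15C against 143 ± 27.0 RPKM at 15 °C (−1.02 ± 0.14, adjusted p = 0.00071). Its p stayed under 0.01 with any 1 library left out, while the fold dropped under 2 without WT 15C-G1 (−0.90), WT 15C-G3 (−0.999) or WT p15C-G3 (−0.94). tag-196 had 52.7, 100.01 and 90.8 RPKM at p15C against 270, 134 and 146 RPKM at 15 °C (−1.15 ± 0.37, adjusted p = 0.0881), and nas-28 had 40.1, 86.3 and 126 RPKM against 199.7, 183 and 204 RPKM (−1.35 ± 0.44, adjusted p = 0.0881). Leaving out any of the 6 libraries ended both of these calls, with adjusted p from 0.101 to 0.189 for tag-196 and from 0.101 to 0.261 for nas-28. For both genes the lowest of the 3 p15C libraries was the first generation after the heat, in each genotype. In hrde-1 the p15C means, 71.1 ± 36.2 RPKM for tag-196 and 66.2 ± 31.6 RPKM for nas-28, lay within the spread of those at 15 °C, 86.5 ± 33.2 and 73.4 ± 15.4 RPKM.

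cpr-4, a secreted cathepsin B gene, had 16.8, 10.2 and 12.5 RPKM at p15C in WT against 1.77, 4.82 and 5.55 RPKM at 15 °C, without overlap (1.56 ± 0.48, adjusted p = 0.0881). In hrde-1 it had 15.5, 11.4 and 8.08 RPKM against 8.01, 1.75 and 8.08 RPKM (1.01 ± 0.48, adjusted p = 0.49). The WT call was lost without WT 15C-G1 (1.17), WT 15C-G2, WT p15C-G2 or WT p15C-G3 (adjusted p 0.141, 0.135, 0.197 and 0.101) and with a pseudocount of 10 RPKM (0.72), and the gene had 4.21 reads on average.

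The genotypes differed in the p15C change at nas-36 and nas-4. 2 members were called higher in this contrast (0.625% of all genes) and 0 lower (0.428%). In limma, 7 of 47 members and 2191 of 19839 genes had an unadjusted p under 0.05. Over all genes the calls were 124 higher and 85 lower as deposited, and 154 higher and 59 lower after median-ratio scaling, with 56 lower without hrde-1 15C-G2. The median of the members was 0.30, beside 0.15 over all genes. For nas-36 the difference was 1.04 ± 0.20 (adjusted p = 0.0135), from 425 ± 9.94 RPKM at p15C against 422 ± 11.9 RPKM at 15 °C in hrde-1, and 69.4 ± 6.75 RPKM against 143 ± 27.0 RPKM in WT. For nas-4 it was 1.03 ± 0.25 (adjusted p = 0.0535), from 206 ± 21.7 RPKM at p15C against 177 ± 5.32 RPKM at 15 °C in hrde-1, and 47.4 ± 6.75 RPKM against 85.0 ± 22.7 RPKM in WT. Both sit on the 2-fold minimum. Without WT 15C-G1 they were 0.91 for nas-36 and 0.82 for nas-4, and without WT p15C-G3 0.95 and 0.91. The nas-4 call was also lost without hrde-1 15C-G2, hrde-1 15C-G3, hrde-1 p15C-G2 or hrde-1 p15C-G3 (adjusted p 0.128, 0.119, 0.102 and 0.13).

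The other protease genes with known roles had few siRNAs and were called in no comparison. cpl-1, the cathepsin L gene needed in embryos for yolk handling, ranged from 1.26 to 6.61 RPKM in hrde-1 and from 1.52 to 7.17 RPKM in WT. cpr-1, a cathepsin B gene of the gut, ranged from 1.87 to 12.2 RPKM in hrde-1 and from 1.62 to 9.82 RPKM in WT. asp-3, a cathepsin D-type gene, ranged from 1.66 to 7.46 RPKM in hrde-1 and from 1.33 to 12.7 RPKM in WT, and asp-6 from 1.82 to 29.2 RPKM in hrde-1 and from 2.17 to 20.8 RPKM in WT. nas-6 and nas-7, astacins of the pharynx, kept to the floor in 24 and 23 of 24 libraries. nas-6 lay between 1.25 and 2.79 RPKM in hrde-1 and between 0.93 and 3.23 RPKM in WT, and nas-7 between 1.13 and 2.78 RPKM in hrde-1 and between 0.83 and 2.91 RPKM in WT. The remaining 28 members, 22 astacins, 4 cathepsin B genes and 2 aspartyl proteases, had means of 1.07 to 6.67 RPKM, with single libraries between 0.48 and 20.8 RPKM and at most 4.72 reads on average. At this depth single reads move their values. In all, 12 of the 49 members were called in at least 1 of the 11 comparisons. The other 37 include nas-37 and nas-38, which were not tested. The same count was not made over all genes, so that these numbers have no background to be set against.

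Other protease and protease inhibitor genes were examined beside these families by lists of gene names, with 42 genes in the table and 40 tested. Between genotypes the calls were 3 higher and 4 lower for phase I, 1 and 3 for phase II, 2 and 2 for phase III, and 4 and 2 for phase IV. The shares of all genes called higher and lower in these phases were 3.72 and 4.1%, 2.5 and 3.2%, 2.68 and 3.18%, and 3.65 and 4.34%. In hrde-1 over WT, adm-4, an ADAM metalloprotease gene, was lower in each phase, with 4.62 ± 2.10 RPKM in hrde-1 against 31.4 ± 5.17 RPKM in WT in phase I (−2.59 ± 0.35, adjusted p = 7.45e-06). csp-1, a caspase gene, was lower in each phase as well, with 214 ± 61.8 RPKM in hrde-1 against 613 ± 154 RPKM in WT in phase I (−1.52 ± 0.21, adjusted p = 9.4e-06). The matrix metalloprotease gene zmp-1 was higher in hrde-1 in phases II to IV (log2 fold change 1.42, 1.41 and 1.16), and the calpain gene clp-6 in phases III and IV (1.29 and 1.43).

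With heat, 3 genes of these lists were called higher and 3 lower in hrde-1, and 5 higher and 1 lower in WT, beside 3.71 and 2.7% of all genes in hrde-1 and 3.94 and 2.64% in WT. cpi-1, a cystatin gene whose product inhibits cysteine proteases, was called higher in both (1.72 ± 0.54 in hrde-1 and 3.34 ± 0.54 in WT), as was the cathepsin Z gene cpz-1 (1.73 ± 0.34 in hrde-1 and 1.99 ± 0.34 in WT). gon-1, an ADAMTS metalloprotease gene of gonad shape, was called lower in both (−2.57 ± 0.34 in hrde-1 and −1.98 ± 0.34 in WT). At p15C, tag-329 and nep-1 were called higher in hrde-1 and nep-1 higher in WT. egl-3, a proprotein convertase gene, was called lower in the difference between genotypes at 23 °C (−1.94 ± 0.54). dpy-31, an astacin that processes cuticle collagen, had the most siRNA of these genes, with 547 ± 59.4, 598 ± 134, 338 ± 38.9 and 284 ± 17.7 RPKM in hrde-1 in phases I to IV, against 430 ± 51.7, 376 ± 68.6, 263 ± 23.7 and 209 ± 5.55 RPKM in WT. It was called lower at p15C in WT (−1.03 ± 0.21, adjusted p = 0.0141) and in no comparison of the genotypes. The astacin gene hch-1, which encodes the hatching enzyme, averaged 1.72 RPKM.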

How the data were processed

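Small RNA libraries of 12 hrde-1 and 12 WT generations were used. As the study's methods state, reads were aligned by the authors with Bowtie 0.12.7 to the mRNA database of WormBase WS190. Perfect antisense alignments were kept, and the authors deposited RPKM normalised to total reads and exon length. The sources used here do not say how reads with several matches were counted, and near-identical genes are uncertain. The values hold no depth, and read numbers were inferred from their steps. Of 75260 low values above the floor, 84.3% lay on whole steps and 96.3% on whole or 0.5 steps (tolerance 0.1 step). Reads of a gene were reckoned from annotated length, the floor, or the lowest library as 1 read.

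From the deposited RPKM, log2(RPKM + 1) was computed for 20167 genes (1 transcript per gene, highest mean), and the 19839 with a mean of at least 1 RPKM entered limma 3.58.1 under R 4.3.3 with lmFit and a trended eBayes, as two-sided tests. The first model had 8 means (2 genotypes, 4 phases) and the second 8 (15C, 23C-G1, 23C-G2 to G6 and p15C by genotype). p-values were adjusted by Benjamini-Hochberg over all genes tested. The fit was tested on simulated data with normal noise, with changes placed in hrde-1 phase I in genes of at least 5 reads. Of 100 log2 changes of 1.5 it called 80, and of 100 changes of 3 it called 100. It also called 14 genes without a change. The simulation had no steps or floor, so it says nothing about members with few reads. Named members are those called in any comparison, the 10 with the highest mean and a list of genes with known roles. Members, lists and tests were chosen with earlier results of these data known. Alternatives were other pseudocounts (10 and 0.1 RPKM), no filter, a mean of at least 5 reads, median-ratio scaling, 1 step taken off, only the libraries compared, 23C-G1 included, a generation block, and each library left out. Python 3.11.15 and matplotlib 3.10.9 made the tables and plots.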

Additional observations from a re-analysis of the deposited data

Results flagged for a closer look

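6 values stood out by fixed rules. Among the 5 WT libraries of 23C-G2 to G6, nas-39 had 2.71 RPKM in 23C-G6, far from the other 4, and asp-1 had 7.40 RPKM in 23C-G2. 42 such groups of 5 libraries (21 named members in 2 genotypes) were examined, and chance alone flags about 1 in 20. Both values stand for few reads.

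The genotypes differed in the response to 23 °C at tag-196 (hrde-1 minus WT 2.10, limma adjusted p = 0.016) and at nas-39 (1.24, adjusted p = 0.0856). They differed in the p15C change at nas-36 (1.04, adjusted p = 0.0135) and at nas-4 (1.03, adjusted p = 0.0535). The cause was not tested in any of these.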

How the results depend on the processing

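No called value changed sign. Of 45 called values, 21 kept their call in all alternatives and 24 lost it in at least 1. A pseudocount of 10 RPKM gave 3 members called in phase III, 3 for 23 °C in hrde-1, 3 for 23 °C in WT, 2 for p15C in WT and 0 for the genotype difference in the p15C change. Calls over all genes also fell in these comparisons. In phase III they were 386 higher and 425 lower, against 531 and 630 in the main fit. For 23 °C they were 308 and 251 in hrde-1, against 736 and 535, and 358 and 265 in WT, against 782 and 524. For p15C in WT they were 83 and 48, against 487 and 224. With 1 step taken off, 3 members were called in phase IV, 0 for p15C in hrde-1, 1 for p15C in WT and 1 for the difference at 23 °C. Over all genes the calls were then 575 higher and 758 lower in phase IV, against 724 and 862. For p15C they were 179 and 81 in hrde-1, against 237 and 126, and 266 and 57 in WT. For the difference at 23 °C they were 104 and 254, against 220 and 279. With only genes of at least 5 reads, 2 members were called for p15C in WT and 1 for the difference at 23 °C. Of all 8022 genes of that depth, 192 were called higher and 61 lower for p15C in WT. For the difference at 23 °C, 163 were higher and 287 lower. With 23C-G1 in the 23 °C mean 1 member was called for that difference, asp-2, while tag-196 and nas-39 lost their calls. Over all genes it then had 172 higher and 220 lower calls. Leaving out each library in turn gave 5 to 7 called members in phase I, 2 to 3 in phase II, 3 to 5 in phase III, 5 to 6 in phase IV, 4 to 5 over the mean of phases, 6 to 9 and 6 to 6 for 23 °C in hrde-1 and WT, 0 to 1 and 0 to 3 for p15C, and 1 to 3 and 0 to 2 for the 2 differences. Shares of all genes moved too. In phase I they were 5.08% higher and 4.47% lower without hrde-1 15C-G1, and 2.93 and 3.27% without hrde-1 15C-G3. The cause of these shifts was not tested beyond the fewer genes or libraries.

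Median-ratio scaling moved the median of all genes from −0.19 to −0.30 in phase I, from −0.13 to −0.26 for p15C in WT and from 0.15 to 0.26 for the p15C difference.

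Same-numbered generations of the genotypes were related in part (correlations −0.03 to 0.37, 8 of 12 over 0.1), and 10 of 12 mutant libraries were closest to their own generation. With generation as a block, 7, 3, 7, 7 and 4 members were called in phases I to IV and over their mean, with no call lost. Calls over all genes rose as well in the phases. Phase I had 834 higher and 850 lower, against 738 and 813 in the main fit. Phase III had 559 and 677, against 531 and 630, and phase IV 786 and 899, against 724 and 862. tag-196 and nas-28 in phase I, tag-196 in phase III, and asp-4 and asp-1 in phase IV then passed. The depth limits what can be seen in the 39 members under 5 reads.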
